A study of Arabidopsis thaliana with 18 samples.

Results

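The nuclear gene for a small subunit of Rubisco, RBCS1A (AT1G67090), the gene for Rubisco activase, RCA (AT2G39730), and the gene for a chloroplast carbonic anhydrase, CA1 (AT3G01500), were followed through lists of splicing events from Arabidopsis thaliana leaves. Their events were found by the locus name in the identifier of each event. Of 6553 events in any list, 26 belonged to these genes: 5 to RBCS1A, 2 to RCA and 19 to CA1. Of these, 24 were among the 5403 events common to all lists (5, 1 and 18), which lie under 2601 gene identifiers. RCA event 2 and CA1 event 3 were listed only in some groups.

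Rubisco fixes carbon dioxide in the chloroplast stroma, and its small subunits are made from a small family of nuclear genes whose messenger RNAs are among the most abundant in a leaf. Rubisco activase is an ATPase that removes inhibitory sugar phosphates from the active sites of Rubisco. In Arabidopsis it is made as a longer and a shorter isoform by alternative splicing of 1 transcript, and the longer isoform carries a C-terminal extension with cysteines through which thioredoxin regulates its activity. Carbonic anhydrase interconverts carbon dioxide and bicarbonate, and CA1 encodes an abundant beta-type enzyme of the leaf chloroplast.

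Polyadenylated RNA came from the first leaf of seedlings aged 14 days, grown on plates with 1% sucrose. Each day had 16 h of light at 22 °C and 8 h of dark at 18 °C, with a light intensity of 100 µmol m-2 s-1. The groups were the F1 hybrids Col-0 x Bur-0, Col-0 x C24, Col-0 x Kro-0 and Col-0 x Ler-1, the inbred accessions Bur-0, C24, Kro-0 and Ler-1, and the accession Col-0, which is a parent of every hybrid. Each of the 9 groups had 2 libraries that the submitters describe as biological replicates, and no group was treated. The labels do not say how many plants went into a library or which parent was the mother of a hybrid. Libraries held 3186952 to 6134488 reads over their listed events. RBCS1A, RCA and CA1 themselves mark leaf mesophyll and were read in all 18 libraries. Of 15 marker genes of other cell types only 4 had an event common to all lists, FAMA, MYB60, AHA3 and ATML1, and edgeR called none of the 4 by reads in any of the 8 comparisons (at an unadjusted p under 0.05 there were at most 2 in any one). By splicing 1 of the 4 was called in Ler-1, a retained intron of FAMA, a transcription factor of guard cells (adjusted p = 0.00767 by edgeR). The intron was kept in 350 of 369 reads in Ler-1 and in all 331 reads in Col-0. As a percentage of the total plus 1, kept reads were 94.2% ± 2.69 in Ler-1 against 99.4% ± 0.0486 in Col-0 (SD, n = 2 each). With 0 spliced reads, the Col-0 value falls short of its maximum only through the 1 added to the total. In RNA from a whole leaf, fewer cells of a type and less RNA per cell cannot be told apart.

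The splice sites that carry the results below are printed first, because several of them differ by a few bases. All are on the minus strand of TAIR10.1, the reference build used here for the TAIR10 coordinates of the events, and run 5′ to 3′. In RCA the capitals mark the 11 nt that the downstream donor of the last intron keeps in the message and the upstream donor removes (chr2:16571171-16571199). In CA1 intron 8, capitals mark the 22 nt between the annotated acceptor and an inner acceptor in exon 9 (chr3:195313-195342). For the annotated donor of CA1 intron 8 (chr3:195397-195415) and an inner donor in exon 8 (chr3:195454-195472), capitals are the last exon bases. For the last intron of CA1, whose removal separates a longer from a shorter protein, capitals are the exon bases at the donor (chr3:195170-195188) and at the acceptor (chr3:194882-194900). In RBCS1A intron 2 capitals mark the 21 nt between the annotated acceptor and an inner acceptor (chr1:25048678-25048707).
RCA donors: ctttctacgGTAAAACAGAGgtttgaaac
CA1 acceptors of intron 8: tgcagGAGGCGGTGAATGTTTCACTAGcaa
CA1 annotated donor of intron 8: ATGTGAAAGGgtatacaaa
CA1 inner donor of exon 8: CAAGTCAAAGgttatatca
CA1 last intron, annotated donor: AACTAGCTCTgtatgaacc
CA1 last intron, acceptor: gtttggtagGTTAAAGATG
RBCS1A acceptors of intron 2: gtatagCACGGATTTGTGTACCGTGAGcac

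Each event has 2 forms with a read count each. For an alternative site the first form is the longer intron and the second the shorter one, and for intron retention (IR) the first form is the spliced junction and the second the reads that keep the stretch. The percent spliced in (PSI) of the deposited tables equals the second form's reads over the total of the event plus 1. It is given here in percent. Overlapping events of a gene count the same junction, so they are not independent of each other, and a read can enter the sum of a gene more than once.

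RBCS1A, the small subunit gene, took the largest part of the reads of the 3 genes. Its events held 13.7% and 15.1% of the reads of the Col-0 x Bur-0 libraries, 17.8% and 18.9% in Col-0 x C24, 16.9% and 17.0% in Col-0 x Kro-0, and 14.99% and 13.5% in Col-0 x Ler-1. Among the inbred accessions the shares were 14.8% and 15.9% for Bur-0, 19.9% and 19.0% for C24, 21.7% and 22.4% for Kro-0, and 24.1% and 24.01% for Ler-1, against 19.4% and 18.5% for Col-0. Ler-1 and then Kro-0 stood highest, and the libraries of Col-0 x Ler-1, Col-0 x Bur-0 and Bur-0 were the 6 lowest. By mean share the order after Kro-0 was C24, Col-0, Col-0 x C24, Col-0 x Kro-0, Bur-0, Col-0 x Bur-0 and, lowest, Col-0 x Ler-1. In that order C24 overlapped with Col-0, Col-0 with Col-0 x C24, Bur-0 with its hybrid, and that hybrid with Col-0 x Ler-1. The other neighbours did not overlap, but how many of all genes separate in this way was not counted. The order describes these libraries only.

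CA1 took 4.02% to 5.70% of the reads of a library, with a median of 4.92%. By library the shares were 4.02% and 4.48% in Col-0 x Bur-0, 4.36% and 5.24% in Col-0 x C24, 4.41% and 5.06% in Col-0 x Kro-0, and 4.73% and 4.74% in Col-0 x Ler-1. The inbred accessions had 5.05% and 4.93% for Bur-0, 5.70% and 5.56% for C24, 4.91% and 5.46% for Kro-0, and 4.77% and 4.81% for Ler-1, against 5.03% and 5.51% for Col-0. C24, Ler-1 and their hybrids list 1 more CA1 event than the other groups. By mean share over events that every list holds, the order was C24, Col-0, Kro-0, Bur-0, Col-0 x C24, Ler-1, Col-0 x Kro-0 (4.79%), Col-0 x Ler-1 (4.77%) and Col-0 x Bur-0. With all listed events Col-0 x Kro-0 and Col-0 x Ler-1 change places. Among neighbours in that order only Col-0 x Ler-1 and Col-0 x Bur-0 did not overlap, again with no count over all genes.

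RCA, the activase gene, took 0.238% to 0.507% of the reads, but the upper end rests on an extra event. C24 and Col-0 x C24 also list the retained form of the last RCA intron, which counts the junction of the upstream donor again. Counted only over events that every list holds, the RCA share was 0.338% and 0.394% in Col-0 x Bur-0, 0.283% and 0.325% in Col-0 x C24, 0.367% and 0.428% in Col-0 x Kro-0, and 0.352% and 0.247% in Col-0 x Ler-1. It was 0.427% and 0.420% for Bur-0, 0.316% and 0.330% for C24, 0.374% and 0.417% for Kro-0, and 0.385% and 0.340% for Ler-1, against 0.246% and 0.319% for Col-0. Bur-0, Kro-0 and Ler-1 lay above both Col-0 libraries, and Col-0 had the lowest mean of the 9 groups. By mean the order was Bur-0, Col-0 x Kro-0, Kro-0, Col-0 x Bur-0, Ler-1, C24, Col-0 x C24, Col-0 x Ler-1 and Col-0. Among these neighbours only Ler-1 and C24 did not overlap, also with no count over all genes. The 3 genes together took 18.0% to 29.3% of the reads of a library.

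**Figure D1:**
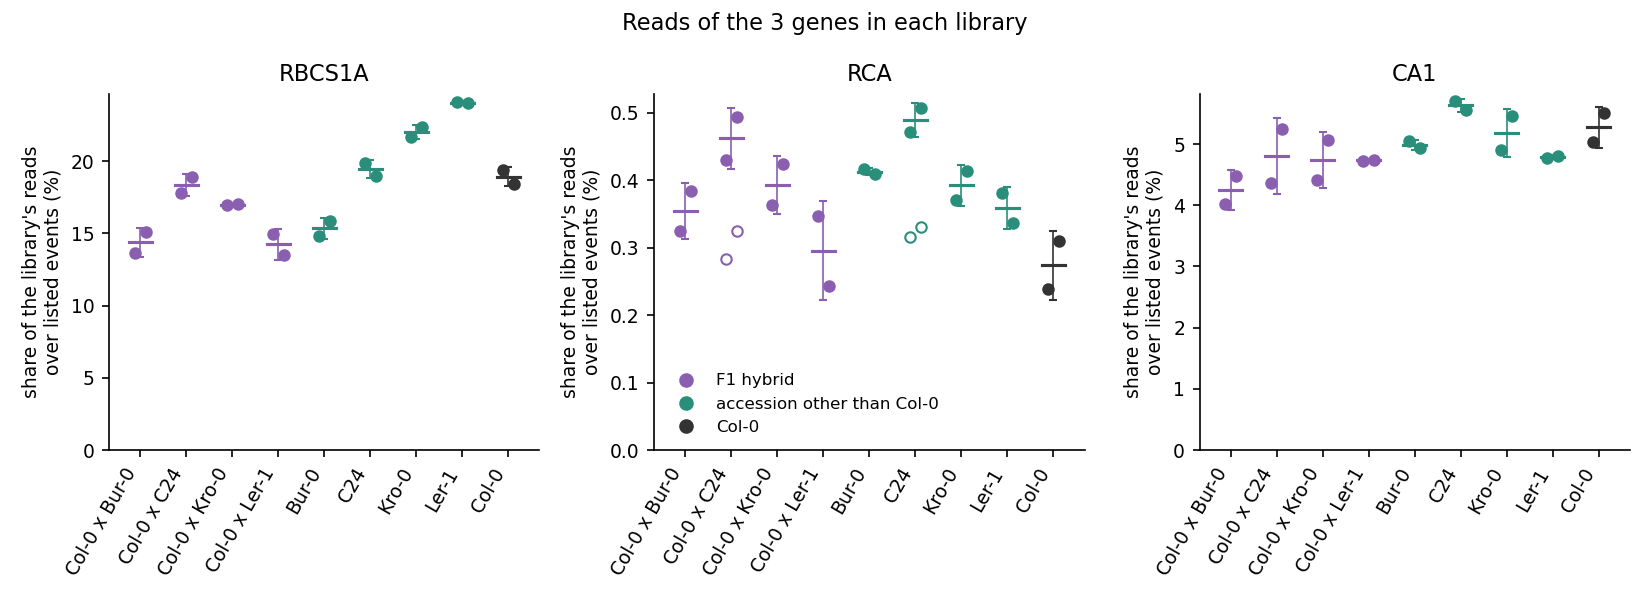
Share of the reads of each library over its listed events (percent, y axis) for RBCS1A, RCA and CA1, by group (x axis). Points are libraries, horizontal lines are means and error bars are the SD of 2 libraries; open circles in the RCA panel give the share over the events common to all lists in the groups with an extra RCA event. RBCS1A runs to 24.1% in Ler-1 and down to 13.5% in Col-0 x Ler-1.

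The comparison of each accession with Col-0 asked whether the genes had more or fewer reads relative to the other listed genes. RCA reads were higher in Bur-0, Kro-0 and Ler-1 than in Col-0. In CPM, the reads of a gene scaled to a common library total by trimmed means (TMM), RCA had 4319 and 4356 for Bur-0, 4389 and 4534 for Kro-0, and 3763 and 3615 for Ler-1, against 2298 and 2977 for Col-0. The 6 libraries of these 3 accessions all lay above both Col-0 libraries, and the Col-0 libraries differed from each other by more than those of any of the 3. The log2 difference was 0.73 (SE 0.13, adjusted p = 0.00194) in Bur-0, 0.76 (SE 0.13, adjusted p = 0.00191) in Kro-0 and 0.48 (SE 0.13, adjusted p = 0.0226) in Ler-1, by edgeR's quasi-likelihood test with Benjamini-Hochberg adjustment over all genes tested. C24 had 3245 and 3170 CPM, also above both Col-0 libraries, with a difference of 0.29 (SE 0.13) that did not pass (adjusted p = 0.136). Both libraries lay above both of Col-0 for 28.0% of all genes tested in Bur-0, 26.6% for C24, 27.4% for Kro-0 and 29.5% for Ler-1. All 4 comparisons share the Col-0 libraries.

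Of the 3 genes, RCA was thus the only gene called by reads in Bur-0, Kro-0 and Ler-1, and edgeR called none in C24, where 1 of the 3 had an unadjusted p under 0.05 and DESeq2 called 0. The share of all tested genes called was 14.4% in Bur-0, 15.1% in Kro-0, 14.4% in Ler-1 and 16.5% in C24. The call in Ler-1 was lost without Col-0 replicate 1 (0.30, adjusted p = 0.198), without Ler-1 replicate 1 (0.45, adjusted p = 0.109) and without Ler-1 replicate 2 (0.51, adjusted p = 0.0695), and with plain library totals in place of TMM scaling (0.36, adjusted p = 0.0732). Plain library totals shifted the median of all genes by −0.15 for Bur-0, −0.10 for C24, −0.28 for Kro-0 and −0.13 for Ler-1 on the log2 scale, where TMM left medians of −0.01, 0.00, −0.01 and −0.01. With plain totals, 103 genes were higher and 311 lower for Bur-0, 140 and 289 for C24, 69 and 585 for Kro-0, and 113 and 276 for Ler-1, where TMM gave 173 and 199, 212 and 215, 188 and 202, and 187 and 186 in the same order. The difference in C24 was 0.48 without Col-0 replicate 2, with an adjusted p of 0.0332, and 0.11 without Col-0 replicate 1. The calls in Bur-0 and Kro-0 were kept in all 10 alternatives run for each, with differences of 0.55 to 0.93 in Bur-0 and 0.49 to 0.95 in Kro-0.

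RBCS1A had 256538 and 244748 TMM-scaled CPM for Kro-0 and 238262 and 257779 for Ler-1, against 187479 and 177029 for Col-0. Both accessions lay above both Col-0 libraries, with log2 differences of 0.46 (SE 0.16, adjusted p = 0.0646) and 0.44 (SE 0.16, adjusted p = 0.0785) that edgeR did not call. DESeq2 called both, with differences of 0.47 (adjusted p = 0.00354) in Kro-0 and 0.44 (adjusted p = 0.00718) in Ler-1. RBCS1A in Bur-0 (−0.16, adjusted p = 0.537) and C24 (0.11, adjusted p = 0.681) did not pass the test by edgeR or DESeq2. With plain library totals RBCS1A in Ler-1 passed (0.32, adjusted p = 0.0484). The other small subunit genes of the family, RBCS1B, RBCS2B and RBCS3B, had no event common to all lists and are near-identical copies of one another and close to RBCS1A, so reads given to RBCS1A may include theirs.

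CA1 was called in no accession. Its log2 difference from Col-0 was 0.06 (SE 0.13) in Bur-0, 0.16 (SE 0.13) in C24, 0.21 (SE 0.13) in Kro-0 and −0.05 (SE 0.13) in Ler-1, with adjusted p-values of 0.837, 0.464, 0.321 and 0.837. With plain library totals CA1 had −0.09 in Bur-0 and −0.06 in Kro-0, the opposite sign to TMM scaling.

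The hybrids were set against the mean of their parents on the log2 scale. RBCS1A reads were lower in Col-0 x Ler-1 than that mean, with a log2 difference of −0.65 (SE 0.14, adjusted p = 0.0168). The hybrid libraries had 141712 and 129409 CPM, against 238262 and 257779 in Ler-1 and 187479 and 177029 in Col-0. Both hybrid libraries lay below all 4 libraries of the parents, as they did for 10.6% of all genes tested. The share of genes called was 2.74% in Col-0 x Ler-1 (71 of 2590), and there were 2 such genes without Col-0 x Ler-1 replicate 2, 28 without Ler-1 replicate 1 and 45 without Col-0 replicate 1. The call was lost without Col-0 replicate 1 (−0.63, adjusted p = 0.0520), without Col-0 x Ler-1 replicate 1 (−0.72, adjusted p = 0.0537) and without Col-0 x Ler-1 replicate 2 (−0.58, adjusted p = 0.175).

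RBCS1A was not called in the other hybrids, with log2 differences from the parental mean of −0.32 in Col-0 x Bur-0 (SE 0.13, adjusted p = 0.452), −0.03 in Col-0 x C24 (SE 0.13, adjusted p = 0.973) and −0.29 in Col-0 x Kro-0 (SE 0.13, adjusted p = 0.269). CA1 had −0.34 (SE 0.14, adjusted p = 0.425) in Col-0 x Bur-0 and −0.15 to −0.16 in the rest. RCA ranged from −0.15 in Col-0 x Ler-1 to 0.24 in Col-0 x Kro-0, with none called. The shares of genes called were 0.309% in Col-0 x Bur-0, 0.0% in Col-0 x C24 and 2.83% in Col-0 x Kro-0. For the 3 genes edgeR and DESeq2 both called 0 in these 3 hybrids, and at an unadjusted p under 0.05 edgeR had 2, 0 and 1 in the same order.

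The event of RCA that all lists share is the choice between 2 annotated donors of the last intron. The upstream donor gives an intron of 124 nt (chromosome 2, 16571067 to 16571190) and, in the annotation, the activase of 474 residues. The downstream donor gives an intron of 113 nt, keeps the 11 nt shown in capitals above and gives a reading frame of 446 residues. Since 11 is not a multiple of 3, the donors put the following exon in different frames. Both introns begin with GT and end with AG.

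Leaves of all 9 groups used both donors about equally. The share of reads at the donor of the shorter isoform was 49.0% and 51.8% in Col-0 x Bur-0, 51.8% and 51.9% in Col-0 x C24, 49.7% and 50.7% in Col-0 x Kro-0, and 49.8% and 45.02% in Col-0 x Ler-1. It was 48.5% and 48.7% for Bur-0, 54.5% and 51.4% for C24, 52.3% and 48.1% for Kro-0, and 47.6% and 47.5% for Ler-1, against 47.7% and 47.4% for Col-0. All 18 values lay between 45.02% and 54.5%, and both libraries of Bur-0, C24 and Kro-0 lay above both Col-0 libraries. Ler-1 overlapped with Col-0. Among all tested events both libraries lay above both of Col-0 for 25.5% in Bur-0, 18.0% in C24 and 17.2% in Kro-0. Reads of both donors together were 10420 to 21317 per library.

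No comparison of the RCA donors was called. The widest difference was that of C24 from Col-0, at 5.42 percentage points, with an adjusted p of 0.917 by edgeR. By limma on PSI the interval (95%) of this difference was 1.53 to 9.31 points, with an adjusted p of 0.153. The same intervals were −2.85 to 4.94 points for Bur-0, −1.23 to 6.56 for Kro-0 and −3.93 to 3.86 for Ler-1. The hybrids differed from the parental mean by 2.30 points (−1.10 to 5.70) in Col-0 x Bur-0, 1.59 (−1.81 to 4.99) in Col-0 x C24, 1.30 (−2.10 to 4.70) in Col-0 x Kro-0 and −0.14 (−3.54 to 3.26) in Col-0 x Ler-1. In edgeR the SE of the log2 odds was 0.52 to 0.75 for this event.

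**Figure D2:**
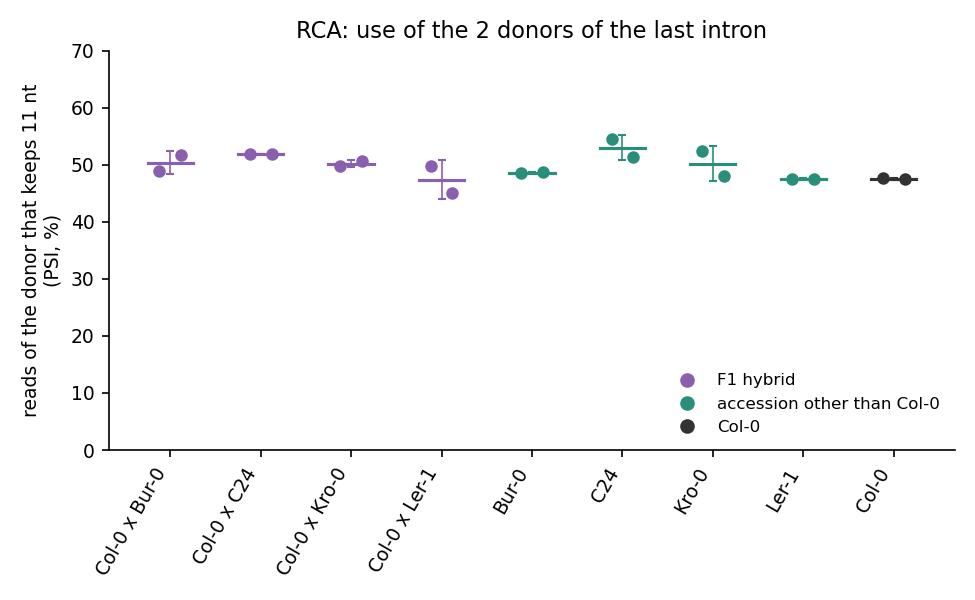
Percent of RCA reads at the donor that keeps 11 nt (PSI, y axis) by group (x axis), with points for libraries, lines for means and error bars for the SD of 2 libraries. All 18 libraries sit between 45.02% and 54.5%, with C24 at 54.5% and 51.4% and Col-0 at 47.7% and 47.4%.

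CA1 held most of the events of the 3 genes. They fall in 2 parts of the message, from exon 1 into exon 2 and from intron 7 onwards, with none between. At intron 1, the junction of the annotated first exon had 11670 to 24477 reads in a library. The junction of the annotated transcript that starts inside that intron, which encodes a protein of 259 residues, had 0 to 10. At intron 7, an acceptor 11 nt inside exon 8 had 0 to 11 reads beside 12050 to 22882 at the annotated one. Neither choice was called in any comparison. Reads that keep the intron between the inner first exon and exon 2 (event 5) numbered 4 to 111, and reads that keep the stretch up to the inner acceptor of intron 7 (event 7) 8 to 231, and neither event was called where it could be tested with all libraries. Without Col-0 replicate 1, event 7 was lower in Bur-0 (adjusted p = 0.0145).

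**Figure D3:**
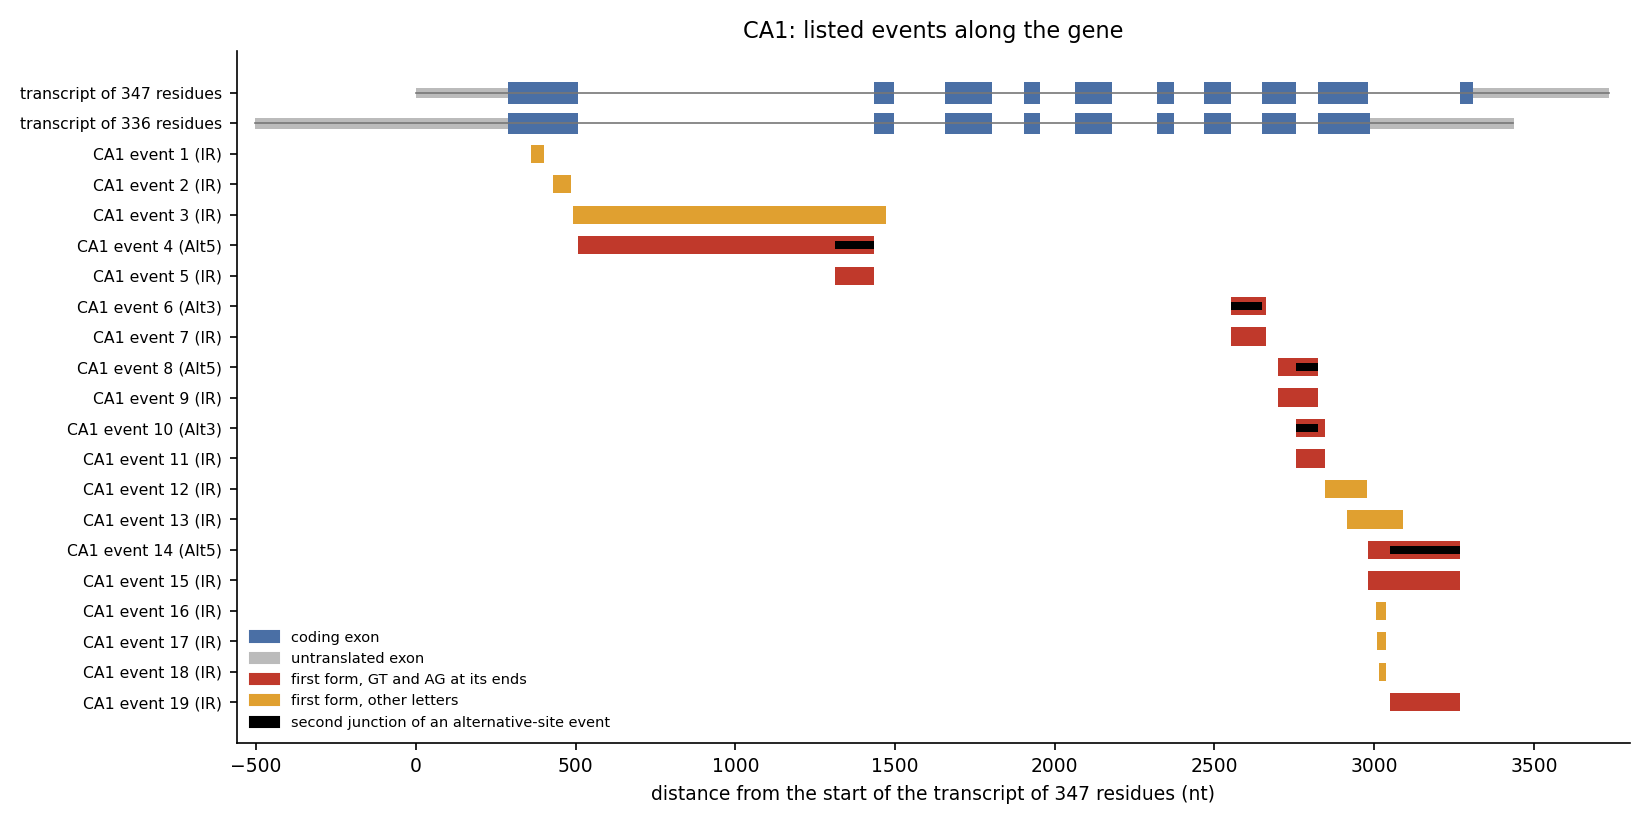
The 19 listed events of CA1 along the gene, with distance from the transcript start in nt on the x axis and 1 row per event below 2 annotated transcripts. Red bars are first forms that begin with GT and end with AG, orange bars are stretches with other letters, and black bars are the second junction of an alternative-site event. Events 8 to 11 lie at intron 8 and events 14, 15 and 19 at the last intron.

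At intron 8 of CA1 a pair of unannotated sites was used in Col-0 and in the hybrids, and hardly or not at all in the other accessions. The inner acceptor, 22 nt inside exon 9, had 9 and 17 reads in Col-0 x Bur-0, 7 and 19 in Col-0 x C24, 9 and 10 in Col-0 x Kro-0, and 16 and 23 in Col-0 x Ler-1. It had 2 and 0 reads in Bur-0 and 0 in all 6 libraries of C24, Kro-0 and Ler-1, against 25 and 31 in Col-0. The annotated junction had 16488 to 32125 reads in the same libraries. Every Col-0 and hybrid library thus lay above every library of the other accessions, but how many of all events separate all these libraries in this way was not counted. For PSI, which is then higher in an accession than in Col-0, both libraries lay above both of Col-0 in 25.5% of all tested events for Bur-0, 18.0% for C24, 17.2% for Kro-0 and 18.9% for Ler-1.

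At the inner donor, 57 nt inside exon 8, the libraries of Col-0 and the hybrids again lay above those of the other accessions, also with no count over all events. It had 6 and 4 reads in Col-0 x Bur-0, 5 and 13 in Col-0 x C24, 7 and 6 in Col-0 x Kro-0, and 6 and 11 in Col-0 x Ler-1. It had 0 reads in the 8 libraries of Bur-0, C24, Kro-0 and Ler-1, against 17 and 22 in Col-0. The 57 nt that it removes from exon 8 are a multiple of 3, and the 22 nt removed by the inner acceptor are not.

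Per 100000 reads of the annotated junction, the inner acceptor reached 96.5 ± 6.32 in Col-0 and the inner donor 67.1 ± 6.41 (SD, n = 2). The counts of 0 allow at most 7.52 per 100000 for C24, 6.64 for Kro-0 and 5.70 for Ler-1 for either site, and at most 5.72 for the inner donor for Bur-0, on counting error only. The inner acceptor had 63.2 ± 12.2 in Col-0 x Bur-0, 50.5 ± 20.5 in Col-0 x C24, 43.5 ± 4.38 in Col-0 x Kro-0 and 75.8 ± 5.92 in Col-0 x Ler-1. The means of the parents were 50.1 for Col-0 x Bur-0 and 48.2 for each of the other crosses. The inner donor had 26.6 ± 13.8 in Col-0 x Bur-0, 35.1 ± 13.3 in Col-0 x C24, 30.3 ± 8.49 in Col-0 x Kro-0 and 32.1 ± 3.01 in Col-0 x Ler-1, and the means of the parents were 33.6 in every cross. No hybrid value at the inner donor exceeded either Col-0 library.

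**Figure D4:**
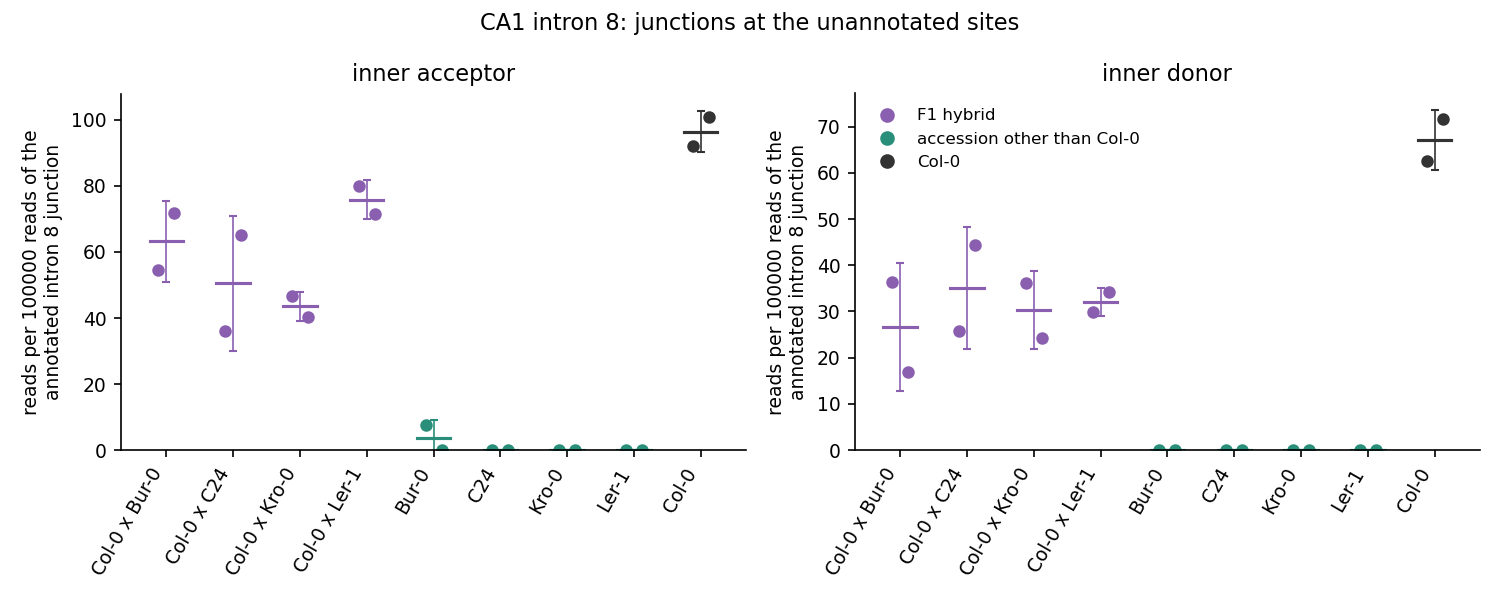
Reads at the unannotated inner acceptor (left) and inner donor (right) of CA1 intron 8 per 100000 reads of the annotated junction (y axis), by group (x axis). Points are libraries, lines are means and error bars are the SD of 2 libraries. Col-0 stands highest at 96.5 and 67.1, the hybrids lie between, and the other accessions are at or near 0.

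Most calls by splicing lay at these sites. The second form rose in Bur-0, C24, Kro-0 and Ler-1 at the inner donor choice (event 8), at the inner acceptor choice (event 10) and at the retained stretch up to the inner acceptor (event 11). Events 10 and 11 rest on the same junction reads. At event 10 the PSI was 99.992% ± 0.00518 for Bur-0, 99.995% ± 0.000692 for C24, 99.996% ± 0.000562 for Kro-0 and 99.996% ± 0.000459 for Ler-1, against 99.900% ± 0.00601 for Col-0, with adjusted p-values of 0.0353, 0.0200, 0.0190 and 0.0130 by edgeR. At event 8 the adjusted p-values were 0.0198, 0.0388, 0.0357 and 0.0248, for differences of 0.0655 to 0.0667 percentage points. At event 11 the PSI was 99.92% ± 0.0484 for Bur-0, 99.95% ± 0.000246 for C24, 99.95% ± 0.0139 for Kro-0 and 99.96% ± 0.00543 for Ler-1, against 99.2% ± 0.0523 for Col-0, with adjusted p-values of 0.00405, 0.00184, 0.00156 and 0.00114. C24, Kro-0 and Ler-1 had 0 reads of the first form at events 10 and 11. Their PSI there falls short of its maximum only through the 1 added to the total. Limma on PSI called none of events 8, 10 and 11. Leaving out any 1 of the compared libraries ended the calls at events 8 and 10 in all 4 accessions, with adjusted p-values of 0.0524 to 0.228. At event 11 they were 0.0236 to 0.0895 in Bur-0, where the call was lost without Bur-0 replicate 2, and 0.0161 to 0.0507 in C24, where it was lost without either C24 library. They stayed under the threshold in Kro-0 (0.00986 to 0.0363) and Ler-1 (0.00971 to 0.0240). Event 9, the retained stretch of the inner donor, was not called in any accession.

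In all, edgeR called 5 of 24 events of the 3 genes in Bur-0 (3 higher and 2 lower, where 4.56% of all tested events were higher and 4.38% lower), 3 of 24 in C24, 3 of 23 in Kro-0 and 4 of 24 in Ler-1. The shares of all tested events called were 8.94% for Bur-0, 6.02% for C24, 5.19% for Kro-0 and 6.97% for Ler-1. The 3 CA1 events at intron 8 make up 3 of the calls in each accession and share the Col-0 libraries. No event of the 3 genes was called in a hybrid against its parents, where the shares were 0.098% in Col-0 x Bur-0, 0.0597% in Col-0 x C24, 0.0795% in Col-0 x Kro-0 and 0.137% in Col-0 x Ler-1. DESeq2 and limma on PSI also called 0 there, and at an unadjusted p under 0.05 edgeR had 4, 6, 3 and 6 in the same order.

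The length of intron 8 itself differed between the accessions. In the coordinates of each assembly, as the event names give them, the annotated intron was 96 nt long in Bur-0, 89 nt in C24 and Ler-1 and 68 nt in Kro-0, against 68 nt in Col-0. Kro-0, with the length of Col-0, had 0 reads at both inner sites beside 45214 at the annotated junction. Whether sequence differences at this intron have a part in the counts was not tested.

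Reads counted as keeping intron 8 together with the end of exon 8 (event 9) were also most frequent in Col-0 and in some hybrids. This measure was chosen after the values were seen and is given without a test. Per 1000 reads of the annotated junction there were 5.398 and 11.03 in Col-0 x Bur-0, 24.98 and 25.2 in Col-0 x C24, 5.44 and 7.20 in Col-0 x Kro-0, and 35.4 and 32.1 in Col-0 x Ler-1. The accessions had 2.13 and 3.23 for Bur-0, 7.90 and 7.05 for C24, 1.17 and 1.54 for Kro-0, and 4.86 and 4.55 for Ler-1, against 32.5 and 32.3 for Col-0. The libraries of Col-0 x Ler-1 overlapped with those of Col-0. Means were 8.22 in Col-0 x Bur-0 against a parental mean of 17.5, 25.1 in Col-0 x C24 against 19.9, 6.32 in Col-0 x Kro-0 against 16.9 and 33.8 in Col-0 x Ler-1 against 18.6, so 2 hybrids lay above their parental mean and 2 below it. For the stretch up to the inner acceptor, which overlaps it, the kept reads were 86.3 to 147 per 1000 in all 18 libraries. Both stretches contain the whole of intron 8, yet their counts were far apart, at 1.17 and 1.54 against 86.3 and 111 per 1000 in Kro-0. The counting rule is not given, so neither count can be read as the share of messages that keep intron 8.

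**Figure D5:**
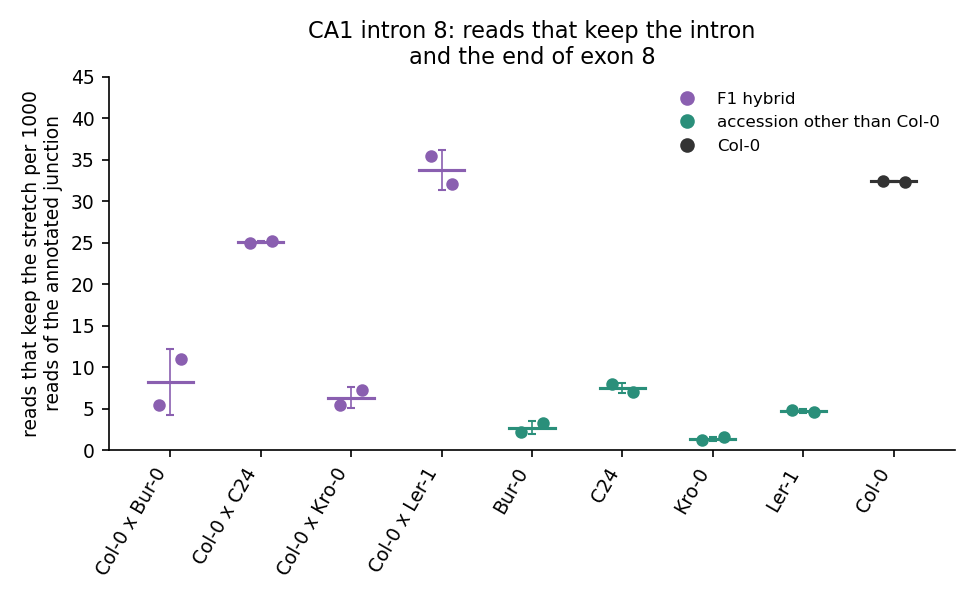
Reads counted as keeping CA1 intron 8 and the last 57 nt of exon 8 per 1000 reads of the annotated junction (y axis), by group (x axis). Points are libraries, lines are means and error bars are the SD of 2 libraries. The 4 libraries of Col-0 x Ler-1 (35.4 and 32.1) and Col-0 (32.5 and 32.3) are the highest, and those of Kro-0 (1.17 and 1.54) the lowest.

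The last intron of CA1 (chromosome 3, 194892 to 195178) separates annotated proteins of 347 residues, when it is spliced, and 336 residues, when the message reads through it. Most reads kept it in every library. The spliced junction made up 2.36% and 1.91% of the reads of this event in Col-0 x Bur-0, 3.82% and 4.07% in Col-0 x C24, 2.26% and 2.12% in Col-0 x Kro-0, and 4.03% and 3.39% in Col-0 x Ler-1. It was 2.14% and 1.91% for Bur-0, 4.48% and 4.42% for C24, 1.99% and 2.61% for Kro-0, and 2.43% and 2.18% for Ler-1, against 2.38% and 3.29% for Col-0. C24 had the highest share and lay above both Col-0 libraries, as did the first form of 29.4% of all tested events, but none of these comparisons was called. The adjusted p for C24 was 0.754 by edgeR, with an SE of 0.76 on the log2 odds. A second donor inside this intron (event 14) had 0 to 12 reads a library, beside 9066 to 21788 reads that keep its stretch (event 19), and neither event was called.

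Another 7 of the common CA1 events were stretches of 22 to 175 nt without GT and AG at their ends, whose PSI was at least 99.6% in each library. Among them event 2, a stretch of 56 nt in exon 1, was lower in Bur-0, where 9 and 8 reads skipped it, against 0 and 0 in Col-0 (adjusted p = 0.0353, and 0.123 to 0.173 with 1 library left out). The hybrid Col-0 x Bur-0 had 9 and 4 such reads, Col-0 x C24 had 9 and 0, and C24 had 0 and 2. The libraries of Kro-0, Ler-1 and their hybrids had 0. Event 3, a stretch of 980 nt in the reference that contains the whole of intron 1, has no GT and AG at its ends. It was listed only for C24, Ler-1 and their hybrids.

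The events of RBCS1A are at intron 2 and in exon 3. The inner acceptor of intron 2 lies 21 nt inside exon 3, a multiple of 3, and its reads varied between replicates by more than between groups. It had 322 and 508 reads in Col-0 x Bur-0, 306 and 50 in Col-0 x C24, 1 and 467 in Col-0 x Kro-0, and 73 and 683 in Col-0 x Ler-1. It had 323 and 0 for Bur-0, 425 and 230 for C24, 558 and 637 for Kro-0, and 522 and 198 for Ler-1, against 0 and 770 for Col-0. The annotated junction had 158698 to 401483 reads in the same libraries, so the 2 Col-0 libraries differed by 770 reads at this site, and the 2 Bur-0 libraries by 323. No comparison of this site was called. Reads that keep the intron up to the inner acceptor (event 2) numbered 11801 to 32815, and that event was not called with all libraries. Without Col-0 replicate 2 it was lower in C24 (adjusted p = 0.0462) and Kro-0 (adjusted p = 0.0370).

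The 3 stretches of RBCS1A in exon 3 have no GT and AG at their ends. Event 4 (134 nt) was lower in Bur-0, where 320 and 54 reads skipped it, against 0 and 0 in Col-0 (adjusted p = 0.0292). Kro-0 had 0 and 263 such reads, Col-0 x Ler-1 had 51 and 151, and all other libraries had 0. Event 5 (112 nt) was higher in Ler-1, where 0 reads skipped it in either library, against 62 and 42 in Col-0 (adjusted p = 0.0193). Bur-0 had 24 and 58 such reads, and Col-0 x Ler-1 had 0 and 13. Event 3 of RBCS1A (145 nt) had 0 to 15 reads that skipped it and was not called. The PSI differed by −0.110 points at event 4 in Bur-0 and by 0.0187 points at event 5 in Ler-1, and limma on PSI called neither. With 1 library left out the adjusted p-values were 0.0833 to 0.213 at event 4 and 0.0423 to 0.142 at event 5, where the call was kept only without Col-0 replicate 2. Event 4 was lower in Kro-0 without Kro-0 replicate 1 (adjusted p = 0.0161).

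The genes of the pathway around these enzymes were read as 5 lists: Rubisco small subunits, Rubisco assembly and regulation, carbonic anhydrases, the Calvin-Benson cycle and photorespiration. Of their 50 other genes 18 had an event common to all lists. By reads 1 of 18 was called for Bur-0, 5 for C24, 6 for Kro-0 and 7 for Ler-1 relative to Col-0. Of these, 1, 4, 5 and 6 were higher. Among all genes tested 14.4% were called for Bur-0, 16.5% for C24, 15.1% for Kro-0 and 14.4% for Ler-1, so the list genes lay below that share in Bur-0 and above it in the other accessions. The median log2 differences of the 18 were 0.12, 0.14, 0.24 and 0.23, against −0.01, 0.00, −0.01 and −0.01 over all genes tested. In the hybrids, 3 of 18 were called in Col-0 x Kro-0 (1 higher, 2 lower), beside 2.83% of all genes tested, a share of 73 genes with all libraries. These were 9 and 11 genes without replicates 1 and 2 of Col-0 x Kro-0, 11 without Kro-0 replicate 2 and 26 without Col-0 replicate 2. In the other crosses edgeR called 0, with 5 at an unadjusted p under 0.05 in Col-0 x Bur-0, 0 in Col-0 x C24 and 8 in Col-0 x Ler-1.

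In the Calvin-Benson cycle, RPI3, a ribose-5-phosphate isomerase, was higher in C24 (543 ± 37.8 CPM, SD, n = 2) and Ler-1 (590 ± 12.03) than in Col-0 (345 ± 16.8), by 0.67 and 0.77 on the log2 scale. CP12-1, which joins 2 enzymes of the cycle in a complex, was higher in Kro-0, at 5707 ± 55.3 against 3447 ± 547 in Col-0 (0.73, adjusted p = 0.00513). GAPB, a subunit of the plastid glyceraldehyde-3-phosphate dehydrogenase, was higher in Kro-0 by 0.50 (adjusted p = 0.0117). PGK2, a phosphoglycerate kinase, was higher in C24 by 0.66 (adjusted p = 0.00162). RPI3 and PGK2 were the genes lower in Col-0 x Kro-0 than the mean of its parents, with log2 differences of −0.60 and −0.52.

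Among the photorespiratory genes, GGT1, a glutamate:glyoxylate aminotransferase of the peroxisome, was higher in Bur-0 (0.44, adjusted p = 0.0211) and Kro-0 (0.52, adjusted p = 0.00907), and higher in Col-0 x Kro-0 than the mean of its parents (0.44, adjusted p = 0.0311). HPR1, a peroxisomal hydroxypyruvate reductase, was higher in Kro-0 by 0.55 (adjusted p = 0.00356). GOX1, a glycolate oxidase, was higher in Kro-0 by 0.58 (adjusted p = 0.00987). Among the carbonic anhydrases, CA2 had 19145 ± 3004 CPM in C24 and 13150 ± 2340 in Col-0 (0.55, adjusted p = 0.0323). CA6 was lower in Kro-0 (−0.42, adjusted p = 0.0477) and Ler-1 (−0.53, adjusted p = 0.0145).

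Among the chaperones, RBCX2, which assists Rubisco assembly, was lower in C24 with a log2 difference of −0.48 (adjusted p = 0.0161), and the chaperonin subunit genes CPN60B1 and CPN60B2 were higher in Ler-1 by 0.74 and 1.04. CPN60B1 and CPN60B2 are close copies, as are GOX1 and GOX2, so reads may be split within each pair. CPN60B2 was also the gene of these lists whose splicing was called in Ler-1. Its intron was kept in 0 of 586 reads in Ler-1, which allows up to 0.512%, against 57 of 332 in Col-0, a difference of −17.3 points (adjusted p = 6.2e-07). In Col-0 x Ler-1 65 of 289 reads kept it, a PSI of 22.2% ± 2.75, where the mean of the parental PSI was 8.64%. The edgeR test set the hybrid against the parental mean on the log odds scale (adjusted p = 0.00123). With 0 kept reads in Ler-1 that mean has no firm value and does not stand for 8.64%. A retained stretch of GOX2, a glycolate oxidase, had a PSI of 96.7% ± 0.446 in Bur-0 and 94.99% ± 0.354 in C24, against 74.1% ± 9.19 in Col-0, with adjusted p-values of 0.0119 and 0.0403 on 60, 38 and 63 reads. The donor choice of GOX2 that counts the same junction was lower in both, at 0 of 6838 reads in Bur-0 (which allows up to 0.0439%) and 0 of 4800 in C24 (up to 0.0625%), against 15 of 6601 in Col-0, with adjusted p-values of 0.0133 and 0.0358.

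By the likeness of log2 CPM over the 9 group means, taken as a description without a test, the genes closest to RBCS1A among 2564 were TIM (AT2G21170), the plastid triose phosphate isomerase (Pearson r = 0.96), the gene pair AT4G01690 and AT4G01700 (0.96) and EMB3113 (AT2G33800, 0.93). Those closest to CA1 were ZFN1 (AT3G02830, 0.89), FED A (AT1G60950), a ferredoxin (0.88), and PGK2 (AT1G56190, 0.85). Those closest to RCA were AT1G01300 (0.87), AT5G16810 (0.87) and AT5G55570 (0.86). Between the 3 genes themselves r was 0.75 for RBCS1A with CA1, 0.33 for RBCS1A with RCA and 0.11 for RCA with CA1. All points share the libraries and their totals.

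For the PSI of the called CA1 events, the genes closest to the inner donor choice among 4736 events were EXPA1 (AT1G69530, r = 0.99), Tic32-IVa (AT4G23430, 0.99) and RBL6 (AT1G12750, 0.98). Those closest to the inner acceptor choice were RBL6 (0.99), TAP38 (AT4G27800, 0.99) and EXPA1 (0.99). For event 11 they were Tic32-IVa (0.97), AT1G67195 (0.97) and RBL6 (0.97), and for event 2 AT1G60200 (0.92), PTB3 (AT1G43190, 0.92) and LTO1 (AT4G35760, 0.91). For RBCS1A event 5 they were WLIM2b (AT3G55770, 0.94), AT1G69572 (0.94) and U2B'' (AT2G30260, 0.91), and for event 4 AT1G79245 (0.88), AT1G53560 (0.88) and AT3G56310 (0.87). Each r was taken over 9 group means, and for CA1 events 8, 10 and 11 the 4 inbred accessions other than Col-0 lay close to 100%.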

How the data were processed

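Poly(A) RNA of 18 libraries was sequenced, and per the labels each table lists splicing events with read counts. The authors deposited 2 read counts per event, 1 for each form, and a PSI as a fraction from 0 to 1. The PSI equals the second count over the sum of both plus 1, as tested on every row. HISAT2, edgeR 3.0.8 and TAIR10 are named in the submitters' processing notes, with no role. The counting rule, strand and read trimming are not given in the sources used here, nor is whether a multiply mapped read was counted.

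Splicing was tested on the deposited counts with edgeR 4.0.16 (quasi-likelihood, R 4.3.3), with 1 term per library and a form-by-group term, leaving out events under 10 reads in a library of the comparison. The 5 accessions were fitted together (10 libraries), and the hybrids in 1 fit of all 18 libraries against the mean of both parents. For splicing edgeR took this mean on the log odds scale, where it is not the mean PSI. Reads per gene, summed over common events, were tested with TMM scaling. Benjamini-Hochberg adjustment ran over all features, and a call is an adjusted p under 0.05. The scripts were tested on simulated data.

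Alternatives were DESeq2 1.42.0, limma 3.58.1 on PSI, other read minimums, library totals, the event with the most reads per gene, totals without the 3 genes, only the compared libraries, a replicate block, each library left out, and limma on log2 odds (0.5 reads added), the last chosen after seeing the data. Limits for counts of 0 are 3 reads over the reads of the group and, like the intervals, cover counting or library spread only. The libraries are biological replicates per the series' design text, which does not say how they were separated, so p-values measure the spread between these libraries. Over common events their counts differed beyond sampling noise in every group. The members and gene lists were chosen with earlier results of these data known. All events of the 3 loci are accounted for. From the lists, up to 12 genes by splicing and 12 by reads with the largest called differences were named, and for likeness the 3 genes with the highest r. Sequences, exons and symbols are from RefSeq on TAIR10.1. Python 3.11.15, pandas 2.3.3, numpy 2.4.6, pysam 0.24.0 and matplotlib 3.10.9 were used.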

Additional observations from a re-analysis of the deposited data

Results flagged for a closer look

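A pair of listed events lay outside the comparisons because only some groups list them. The first is RCA event 2, the retained last intron, with a PSI of 9.33% in Col-0 x C24 (9.24% and 9.42%) and 10.9% in C24 (10.2% and 11.6%). The kept intron had 599 and 886 reads in Col-0 x C24 and 590 and 667 in C24. The spliced reads beside them, all at the upstream donor, were 5883 and 8518 in Col-0 x C24 and 5179 and 5059 in C24. The PSI leaves out the downstream donor of this intron, which had 6331 and 9193 reads in Col-0 x C24 and 6212 and 5361 in C24. It is thus not the share of RCA messages that keep the last intron. No list of the other groups, Col-0 included, gives this event, so the difference from Col-0 was not tested.

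The other is CA1 event 3, a stretch of 980 nt in the reference (1022 nt in C24 and Ler-1) without GT and AG at its ends. It contains the whole of intron 1, whose annotated junction had 15809 and 15188 reads in C24 and 15337 and 20941 in Ler-1. Reads of that junction are in neither form of event 3, so its PSI does not give the retention of intron 1. The PSI of event 3 was 98.8% in Col-0 x C24 and 98.6% in Col-0 x Ler-1, and 98.8% in C24 and 98.7% in Ler-1. Reads that skipped it numbered 9 and 13 in Col-0 x C24, 15 and 13 in Col-0 x Ler-1, 14 and 4 in C24, and 13 and 14 in Ler-1. Neither event was compared between groups.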

How the results depend on the processing

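Groups of 2 libraries limit every test, and the called CA1 and RBCS1A events rest on 0 to 320 reads of their rarer form per library. Limma on PSI called 0 events of the 3 genes in Bur-0, C24, Kro-0 and Ler-1, where edgeR called 5, 3, 3 and 4. DESeq2 called 5, 3, 3 and 4, and limma on log2 odds 4, 4, 3 and 5. With 1 library left out at a time the count was 0 to 2 in Bur-0 and C24 and 1 to 2 in Kro-0 and Ler-1, and stayed at 0 in all hybrids. These counts include events that were not called with all libraries, each lower than in Col-0: CA1 event 7 in Bur-0 without Col-0 replicate 1, RBCS1A event 2 in C24 and Kro-0 without Col-0 replicate 2, and RBCS1A event 4 in Kro-0 without Kro-0 replicate 1. The cause was not tested. CA1 event 11 stayed past the threshold in 9 of 11 alternatives in Bur-0, 8 in C24 and 10 in Kro-0 and Ler-1, and events 8 and 10 in 6 of 11 in each accession.

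By reads, DESeq2 called 2 of the 3 genes in Kro-0 and in Ler-1, where edgeR called 1. With 1 library left out, the count was 1 to 1 in Bur-0 and Kro-0, 0 to 1 in C24, Ler-1 and Col-0 x Ler-1, and 0 in the other hybrids. The log2 difference of CA1 was −0.0873 in Bur-0 and −0.0575 in Kro-0 with library totals, and 0.0830 in Ler-1 on the event with the most reads. That of RBCS1A in Col-0 x C24 was 0.0179 on the event with the most reads.

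Leaving out 1 library turned some differences that were not called. The log2 reads difference of CA1 ranged from −0.00226 to 0.12 in Bur-0, from −0.119 to 0.0175 in Ler-1 and from −0.371 to 0.0413 in Col-0 x C24. That of RCA ranged from −0.17 to 0.16 in Col-0 x Bur-0, from −0.12 to 0.23 in Col-0 x C24 and from −0.418 to 0.0759 in Col-0 x Ler-1. That of RBCS1A in Col-0 x C24 ranged from −0.157 to 0.0800. The PSI difference of RCA event 1 ranged from −0.165 to 0.0961 points in Ler-1 and from −2.53 to 2.24 points in Col-0 x Ler-1.

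Over all features, the number of splicing calls in Bur-0, Kro-0 and Ler-1 was 306, 174 and 220 by DESeq2, 300, 235 and 220 by limma on PSI and 329, 182 and 248 with only the compared libraries, where edgeR on all accessions called 459, 263 and 358. In the hybrids edgeR called 5, 3, 4 and 7 events in Col-0 x Bur-0, Col-0 x C24, Col-0 x Kro-0 and Col-0 x Ler-1, DESeq2 10, 6, 8 and 6, and limma on log2 odds 33, 21, 24 and 12. With library totals, reads were called for 654 genes in Kro-0, against 390 with TMM. With 1 library left out the splicing calls were 204 to 322 in Bur-0, 131 to 171 in C24, 152 to 195 in Kro-0 and 168 to 219 in Ler-1, where all libraries gave 459, 303, 263 and 358. Calls by reads were 161 to 316, 217 to 325, 227 to 292 and 198 to 352 in the same order, where all libraries gave 372, 427, 390 and 373. In the hybrids calls by reads were 1 to 23 in Col-0 x Bur-0, 0 to 1 in Col-0 x C24, 9 to 64 in Col-0 x Kro-0 and 2 to 60 in Col-0 x Ler-1, where all libraries gave 8, 0, 73 and 71, and splicing calls were 0 to 1, 2 to 3, 2 to 7 and 2 to 4. The shares of all features called move with these counts.

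The replicate numbers were not shown to pair the libraries. Deviations of same-numbered libraries correlated at −0.21 to 0.43 (median 0.09) for gene reads, with 16 of 36 group pairs over 0.1, and at −0.13 to 0.26 for PSI, with 12 of 36 over 0.1. With a replicate block the events called were 5, 3, 3 and 4 in Bur-0, C24, Kro-0 and Ler-1 and 0 in the hybrids. The genes called by reads were 1, 0, 1 and 1 in the accessions and 0, 0, 0 and 1 in the hybrids. Over all genes the block gave 102 calls by reads in Col-0 x Kro-0 and 106 in Col-0 x Ler-1, against 73 and 71 without it.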
